A study of Arabidopsis thaliana with 12 samples.

Results

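Roots of slim1-1 and slim1-2, mutant lines of SLIM1, were compared on medium with sufficient sulfate. SLIM1, also called EIL3, belongs to the EIN3-like transcription factors and is known for controlling sulfate uptake and sulfur metabolism in Arabidopsis roots when sulfur is short. Under such shortage plants take up more sulfate, release sulfur from stored compounds and make less of the sulfur-rich glucosinolates, and lines with a defective SLIM1 are known to do this poorly. The comparison asked how these lines differ when sulfate is not short.

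Of the 12 arrays of the study, 4 belonged to this comparison, 2 from slim1-1-S1500 and 2 from slim1-2-S1500, chosen by their sample titles. Both lines were isolated from a parental line, called P here, a Columbia (Col-0) plant in which GFP is driven by the promoter of SULTR1;2, a sulfate transporter gene, and both were picked because that GFP signal did not respond to sulfur limitation. All 3 lines therefore carry the reporter. Each mutant line is a single isolate, so the allele and any other difference between the isolates cannot be told apart. An allele difference below means a difference between these lines. Whole roots of 10-day-old plants grown on vertical agar were used. S1500 agar had 1500 µM MgSO4 added, S15 agar had 15 µM with 1485 µM MgCl2, and the labels put the sulfate left in washed agar at about 10 µM. P and the S15 arrays, 2 arrays in each of the 4 other groups, served for reference and for a shared estimate of the spread.

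Replicates are called biological replicates in the labels, without saying whether they came from separate cultures, so the p-values measure the spread between these arrays. Median signals of the 4 arrays ran from 72.1 to 100.1, and from 65.65 to 174.95 over all 12. Across tested probe sets, which are not independent replicates, the slim1-1-S1500 arrays correlated at 0.987 and the slim1-2-S1500 arrays at 0.982. The number of arrays limits the precision. All values below are log2 signals after quantile normalization unless stated otherwise. Summed signals are normalized signals added on the linear scale. A difference is slim1-1 minus slim1-2 with its fitted standard error (SE) and 2 arrays a group, and "called" means an adjusted p below 0.05 over all 13647 tested probe sets. On signals left unnormalized the median difference moved by 0.23, and all differences are relative to normalized signals. SLIM1 itself, the sulfate transporter genes and APR1 to APR3, SDI1 and LSU1 were not analysed here, since the probe annotation used does not name them, so the mutated gene gives no check of the labels.

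Of 13647 tested probe sets, 231 (1.69%) were called between slim1-1 and slim1-2 on S1500, 71 higher (0.52%) and 160 lower (1.17%) in slim1-1. A difference of at least 2-fold was seen for 63 of them, 10 higher and 53 lower. The arrays of the groups did not overlap for any of the 231, against 39.2% of all tested probe sets without overlap. Exactly 1 gene was assigned to 89 of the called probe sets, 36 higher and 53 lower, and 136 are unnamed here. The lower genes included nuclear photosynthesis genes, a run of neighbouring plastid genes and root hair genes, and the higher genes included BCAT4 and UGT74B1 of glucosinolate synthesis. Without normalization between arrays 13 probe sets were called, and 36 of the 38 calls named by size or as list members were lost. Leaving out 1 array moved the count by over 1.5 times in 3 cases, to 108 without slim1-1-S1500 replicate 1, to 108 without slim1-1-S1500 replicate 2 and to 133 without slim1-2-S1500 replicate 1.

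**Figure D1:**
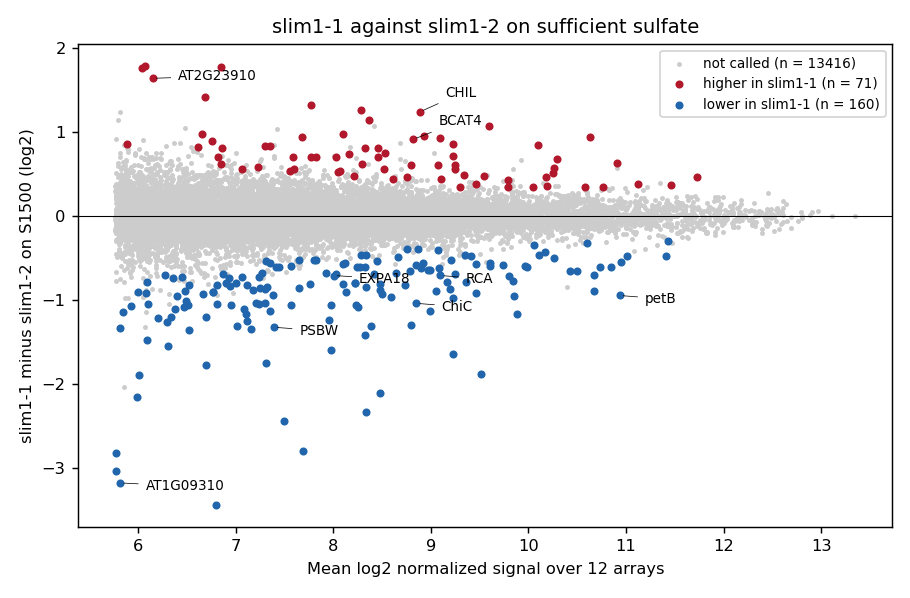
Each point is 1 of 13647 tested probe sets, with its mean log2 signal over 12 arrays on the x axis and the slim1-1 minus slim1-2 difference on S1500 (log2) on the y axis. The 71 called higher probe sets (red) stay below 2 on the y axis, and the 160 called lower ones (blue) reach beyond -3, with AT1G09310 at -3.18.

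P gave each difference a reference on the same medium, although the comparisons with P share the mutant arrays with the comparison of the alleles and are given side by side only. Against P, 59 probe sets (0.432%) were called in slim1-1, 9 higher (0.0659%) and 50 lower (0.366%), and 302 (2.21%) in slim1-2, 139 higher (1.02%) and 163 lower (1.19%). These counts changed when single arrays were left out. Without P-S1500 replicate 1 they were 18 and 78, without P-S1500 replicate 2 they were 101 and 186, without slim1-1-S1500 replicate 1 and replicate 2 the first was 22 and 31, and without slim1-2-S1500 replicate 2 the second was 128. Of the 71 probe sets higher in slim1-1, the P mean lay nearer to slim1-1 in 66, and their median difference from P was -0.00462 in slim1-1 and -0.64 in slim1-2. Of the 160 lower in slim1-1, the P mean lay between the alleles in 128 and nearer to slim1-1 in 90, with medians of -0.35 in slim1-1 and 0.42 in slim1-2. Over all 13647 tested probe sets, the P mean lay between the alleles in 4273 and nearer to slim1-1 in 7470. The 90 of 160 is therefore close to the share among all of them.

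The named gene with the most negative difference was AT1G09310, for which the sources used here give no role. Its signal was 4.51 and 4.34 in slim1-1-S1500 and 7.93 and 7.29 in slim1-2-S1500. On P-S1500 it was 7.87 and 7.41. Only the slim1-1 arrays were low on S1500, and the groups did not overlap. The difference was -3.18 ± 0.241 (9.07-fold lower; adjusted p = 6.51e-06). On S15 it was 3.98 and 3.81 in slim1-1 and 3.91 and 3.75 in slim1-2, while P-S15 stayed at 7.64 and 7.36. On S15 slim1-2 was below the control bound on both arrays and slim1-1 on 1 of 2. That bound is the highest signal of 27 Bacillus control probe sets on an array, so the mutant lines were both low on S15 and their measured difference of 0.07 there has no reliable size. The call on S1500 held whichever of the 12 arrays was left out, with values from -3.50 to -2.86.

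Several nuclear genes of photosynthesis were lower in slim1-1. Photosynthetic genes are mostly expressed in green tissue, and roots kept in light can make some chloroplasts. Of 24 listed shoot photosynthesis markers, 4 are named here and 3 passed the signal filter, and the 3 were called lower, against 1.17% of all tested probe sets. RCA, rubisco activase, which keeps the carbon-fixing enzyme rubisco active, had 8.69 and 8.84 in slim1-1-S1500 and 9.53 and 9.41 in slim1-2-S1500. P-S1500 had 9.84 and 9.57. Both slim1-1 arrays lay below all 4 arrays of the other lines, and the difference was -0.71 ± 0.102 (adjusted p = 0.00193). LHCB4.1 and LHCB4.2, which encode minor antenna proteins of photosystem II, differed by -0.69 ± 0.148 and -0.82 ± 0.153. Summed signals of the 4 named markers, PRK included, were 823 and 876 in slim1-1-S1500, 1427 and 1461 in slim1-2-S1500 and 1400 and 1603 in P-S1500. On S15 they were 744 and 831 in slim1-1, 840 and 873 in slim1-2 and 1181 and 1188 in P. In the deposited signals, before normalization, none of the 4 markers was listed at 0 on any array, the lowest being 26.1 for PRK.

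PSBW, a small subunit of photosystem II, had 6.71 and 6.64 in slim1-1-S1500 against 7.98 and 8.02 in slim1-2-S1500. P-S1500 had 8.16 and 7.497. The slim1-1 arrays were again the lowest of the S1500 arrays, and the difference was -1.33 ± 0.175 (2.51-fold lower; adjusted p = 0.000923). PSAE-1, a stromal subunit of photosystem I, differed by -1.54 ± 0.297, with 5.24 and 5.71 against 7.27 and 6.77. HPR, hydroxypyruvate reductase of the photorespiratory pathway in peroxisomes, differed by -1.20 ± 0.186, with 5.63 and 5.87 against 6.89 and 7.01. Each of these was at or near the P level in slim1-2, where the differences from P were 0.17 for PSBW, -0.09 for PSAE-1 and 0.06 for HPR. In slim1-1 the differences from P were -1.15, -1.63 and -1.14. A wider set of nuclear photosystem and light-harvesting genes, drawn from symbol stems after the values were seen, had 7 of 7 tested members called lower, against 1.17% of all tested probe sets, with a median of -0.82 against 0.0103 over all of them. Since the set was drawn with these values in view, its count is a description only. Its members beyond those above were PSAN of photosystem I (-0.83 ± 0.147), PSBY of photosystem II (-0.60 ± 0.132) and LIL3:2, a light-harvesting-like protein (-0.58 ± 0.122). On S15 the median of the same 7 was -0.19. Because whole roots were sampled, fewer cells of a type and less RNA per cell cannot be told apart. The part of green or shoot-derived tissue in these differences was not tested.

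Several of these calls were lost with 1 array left out, with the sign kept. A group cut to 1 array also gives a less precise difference, so a lost call does not show that 1 array carried it. PSAE-1 (-1.31), PSAN (-0.69), LHCB4.1 (-0.62), PSBY (-0.60) and LIL3:2 (-0.65) lost theirs without slim1-1-S1500 replicate 1, and LHCB4.1 (-0.76), LHCB4.2 (-0.69), PSBY (-0.60) and LIL3:2 (-0.50) without slim1-1-S1500 replicate 2. PSAE-1 (-1.30), PSAN (-0.75), LHCB4.1 (-0.77), LHCB4.2 (-0.79), PSBY (-0.63) and LIL3:2 (-0.64) lost theirs without slim1-2-S1500 replicate 1, and LHCB4.1 (-0.62), PSBY (-0.57) and LIL3:2 (-0.51) without slim1-2-S1500 replicate 2. PSBY also lost its call without P-S15 replicate 1 or replicate 2, at -0.60. RCA, PSBW and HPR kept their calls whichever array was left out.

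**Figure D2:**
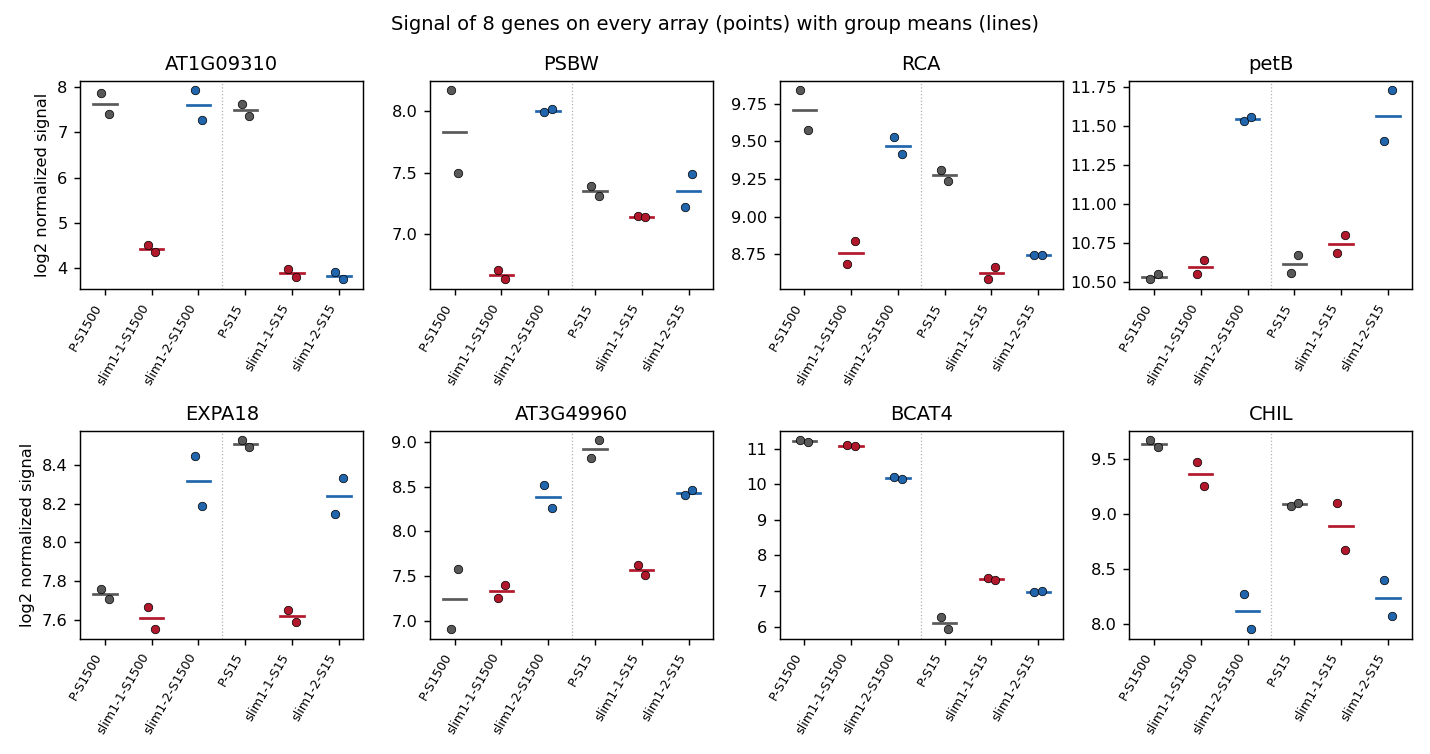
The log2 normalized signal (y axis) of 8 genes is shown on each of the 12 arrays (points, 2 per group) with the group means (lines), S1500 to the left of the dotted line and S15 to the right. On S1500, AT1G09310, PSBW and RCA are low in slim1-1 and near P in slim1-2. On the same medium petB, EXPA18 and AT3G49960 are high in slim1-2, and BCAT4 and CHIL are low in slim1-2.

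Plastid-encoded genes gave 6 calls among 55 tested, 6 lower and 0 higher, against 1.2% of all tested probe sets with a placed gene. The median of the 55 was 0.0957, with 30 positive and 25 negative differences. The 6 were psbB, psbT, psbH, petB, rpoA and ndhC. The first 5 belong to 1 stretch of 7 consecutive plastid genes in RefSeq, from psbB to rpoA, in which psbN and petD did not pass the signal filter. psbB, psbT and psbH encode proteins of photosystem II, petB encodes cytochrome b6 of the complex between the photosystems, and rpoA encodes a subunit of the plastid RNA polymerase.

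petB had 10.55 and 10.64 in slim1-1-S1500 and 11.53 and 11.56 in slim1-2-S1500. P-S1500 had 10.52 and 10.55. The slim1-2 arrays stood above the other 4 by nearly the whole difference, which was -0.95 ± 0.0949 (adjusted p = 7.67e-05). psbH showed the same order, with 8.22 and 8.18 in slim1-1, 9.09 and 9.24 in slim1-2 and 8.08 and 7.83 in P (difference -0.96 ± 0.149, adjusted p = 0.00339). psbB (-1.06 ± 0.223) and psbT (-1.22 ± 0.277) were also lower in slim1-1. psbB differed from P by -0.28 in slim1-1 and 0.78 in slim1-2, and psbT by -0.74 and 0.47. For psbT the larger part thus lay in slim1-1, and none of these differences from P was called. rpoA (-1.42 ± 0.293) and ndhC (-0.91 ± 0.183), a subunit of the plastid NADH dehydrogenase-like complex, were low in slim1-1. For these genes slim1-1 differed from P by -1.59 and -1.14 and slim1-2 by -0.17 and -0.23.

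The S15 arrays of the alleles, which enter the S1500 differences only through the shared normalization, filter and estimate of the spread, gave differences of -0.82 for petB, -0.58 for psbH, -0.44 for psbB, -0.68 for psbT and -0.40 for rpoA. Of these, petB was called on S15 (adjusted p = 0.0022). psbH had 8.62 and 8.54 against 9.10 and 9.22 there, without overlap (adjusted p = 0.217), as were 32.3% of all tested probe sets on S15. The slim1-2-S1500 arrays differed from each other in plastid genes as a whole. Replicate 1 was below replicate 2 in 45 of the 55, and the median plastid signal was 7.71 on replicate 1 and 8.57 on replicate 2. It was 8.21 and 8.18 on the slim1-1-S1500 arrays and 8.035 and 8.034 on the P-S1500 arrays. The P-S15 arrays also lay apart, at 7.79 and 8.275. Of the called genes, rpoA (9.45 and 8.61), ndhC (8.72 and 8.17) and psbT (6.60 and 6.55) were instead higher on slim1-2-S1500 replicate 1. The part of the difference between the slim1-2-S1500 arrays in the calls was not tested. Without slim1-2-S1500 replicate 1, psbT (-1.19), rpoA (-1.001) and ndhC (-0.63) lost their calls, and without its replicate 2, psbB (-0.88) and psbT (-1.24) did. Leaving out slim1-1-S1500 replicate 1 ended the calls of rpoA (-1.17) and ndhC (-0.83), and leaving out its replicate 2 those of psbB (-0.75), psbT (-0.91), rpoA (-1.68) and ndhC (-0.98). psbT also lost its call without either slim1-1-S15 array (-1.22). petB and psbH kept theirs whichever array was left out.

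**Figure D3:**
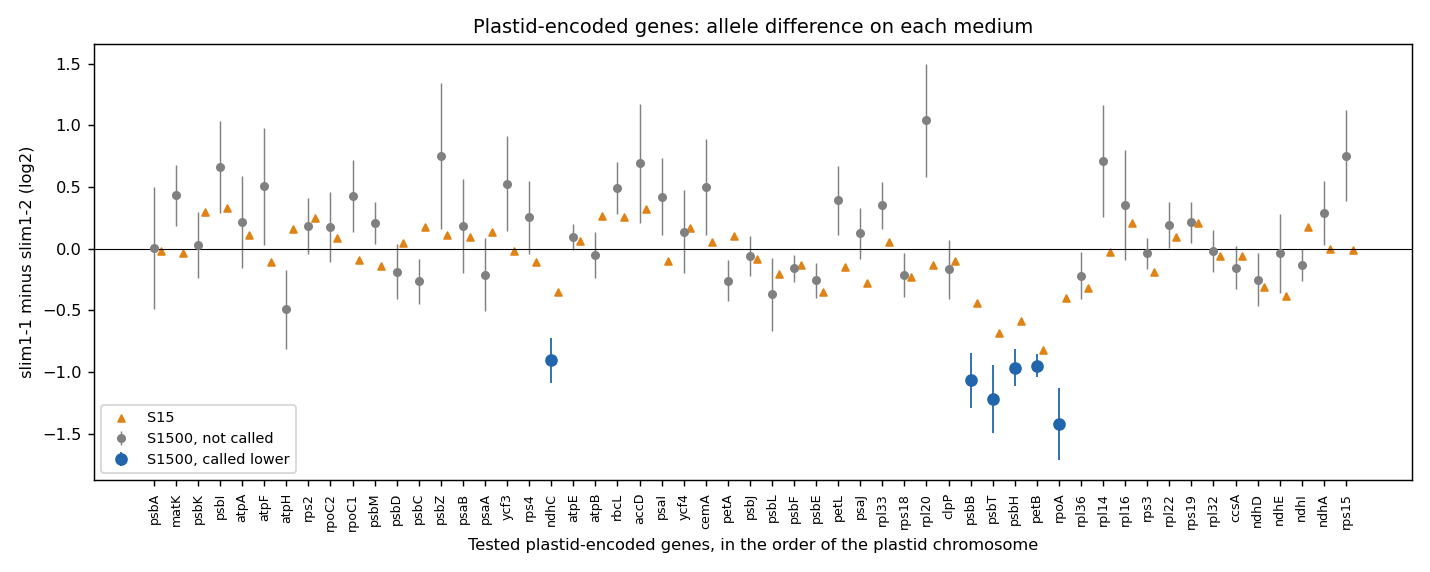
The slim1-1 minus slim1-2 difference (log2, y axis) of the 55 tested plastid-encoded genes is plotted in their order along the plastid chromosome (x axis), as circles with SE for S1500 and triangles for S15. The 5 neighbouring genes psbB, psbT, psbH, petB and rpoA lie between -0.95 and -1.42 on S1500 and between -0.40 and -0.82 on S15.

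Of 11 listed root hair markers, 4 were tested and 3 called lower in slim1-1, against 1.17% of all tested probe sets, with a median of -0.68 over the 4. EXPA18, an expansin that loosens the cell wall of growing root hairs, had 7.66 and 7.55 in slim1-1-S1500 and 8.45 and 8.19 in slim1-2-S1500. P-S1500 had 7.76 and 7.70. On S1500 the slim1-2 arrays were the high ones, and the difference was -0.71 ± 0.116 (adjusted p = 0.00501). The marker locus AT3G49960 differed by -1.06 ± 0.175 (2.09-fold lower), with 7.26 and 7.40 against 8.52 and 8.26, and P-S1500 at 6.91 and 7.58. The marker locus AT4G26010 differed by -0.65 ± 0.102, with 10.19 and 10.02 against 10.72 and 10.79. EXPA7, another root hair expansin, gave -0.50 and did not pass (adjusted p = 0.144). Summed signals of the 4 markers were 1651 and 1731 in slim1-1-S1500, 2677 and 2755 in slim1-2-S1500 and 1775 and 2018 in P-S1500. On S15 the median of the 4 was -0.50, with sums of 1739 and 2079 in slim1-1 and 2576 and 2640 in slim1-2. The P-S15 sums were 3086 and 2997, above both mutant lines, so slim1-2 was not the highest line there. EXPA18 was the 1 member called among 12 tested expansins, whose median was -0.17. Without slim1-1-S1500 replicate 1 the call of AT3G49960 was lost (-0.99). EXPA18 (-0.65) and AT4G26010 (-0.57) lost theirs without slim1-1-S1500 replicate 2, and EXPA18 (-0.58) and AT3G49960 (-0.93) without slim1-2-S1500 replicate 1.

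ChiC, a class V chitinase, an enzyme type that degrades chitin, had 8.28 and 8.39 in slim1-1-S1500 and 9.26 and 9.50 in slim1-2-S1500. P-S1500 had 8.36 and 8.61. The high signals were those of slim1-2, and the difference was -1.04 ± 0.131 (2.06-fold lower; adjusted p = 0.000639), called whichever array was left out.

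The other lower genes of the 15 named by size have locus identifiers only and no role in the sources used here. AT2G26500 had 6.74 and 6.72 in slim1-1-S1500 and 7.77 and 7.96 in slim1-2-S1500, a difference of -1.14 ± 0.126 (adjusted p = 0.000193) that was called whichever array was left out. AT2G25510 differed by -1.11, AT2G39980 by -1.07, AT1G03740 by -1.04 and AT1G51400 by -1.03. AT2G39980 had 5.26 and 5.76 against 6.56 and 6.59, and its slim1-1 arrays lay at the P level of 5.45 and 5.40. AT1G03740 differed almost as much on S15, by -0.96. These 4 calls were lost without slim1-1-S1500 replicate 1 (AT2G25510 at -1.15, AT2G39980 at -0.81, AT1G03740 at -1.11, AT1G51400 at -0.78). AT2G25510 (-1.06) and AT1G03740 (-0.98) also lost theirs without slim1-1-S1500 replicate 2, AT2G25510 (-0.75), AT2G39980 (-1.08) and AT1G51400 (-0.89) without slim1-2-S1500 replicate 1, and AT2G39980 (-1.05) and AT1G03740 (-0.95) without its replicate 2.

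Among genes higher in slim1-1 were enzymes of glucosinolate synthesis, the pathway that stores sulfur in defence compounds. BCAT4, the aminotransferase that starts the elongation of methionine side chains for aliphatic glucosinolates, had 11.11 and 11.07 in slim1-1-S1500 and 10.20 and 10.15 in slim1-2-S1500. P-S1500 had 11.24 and 11.19. The slim1-2 arrays were low and slim1-1 was near P, with a difference of 0.91 ± 0.106 (1.88-fold higher; adjusted p = 0.00029). On S15 BCAT4 was at 7.36 and 7.31 in slim1-1 and at 6.97 and 7.01 in slim1-2, a difference of 0.35, and P-S15 at 6.27 and 5.93. UGT74B1, a glucosyltransferase in the synthesis of the core structure, had 9.12 and 9.25 in slim1-1-S1500 and 8.75 and 8.41 in slim1-2-S1500. The difference was 0.60 ± 0.114 (adjusted p = 0.0128), with P-S1500 at 9.33 and 9.42. Of 22 listed genes of the aliphatic branch 3 were tested, 1 was called, and their median was 0.34. UGT74C1 gave 0.34 and GSTU20 gave 0.04, and neither passed. BCAT4 kept its call whichever array was left out, whereas UGT74B1 lost its call without slim1-1-S1500 replicate 1 (0.67) or replicate 2 (0.54) and without slim1-2-S1500 replicate 2 (0.43).

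Of 22 listed genes of sulfate assimilation 3 were tested and 0 called, and of 10 listed markers of sulfur deficiency 2 were tested and 0 called, counts too small to stand apart from the 1.69% called among all tested probe sets. ATPS3, an ATP sulfurylase that activates sulfate, had 7.12 and 7.22 in slim1-1-S1500 and 6.75 and 6.86 in slim1-2-S1500, a difference of 0.37 ± 0.141 (adjusted p = 0.313). ATPS4, another ATP sulfurylase, gave 0.06 ± 0.0936, with 11.03 and 11.23 against 11.13 and 11.02, and SIR, sulfite reductase, gave 0.01. Of these 3 assimilation genes, ATPS4 was the one that stood apart from P in both lines, by -0.59 in slim1-1 and -0.64 in slim1-2. P-S1500 had 11.65 and 11.77. SDI2, SULFUR DEFICIENCY INDUCED 2, had 8.18 and 7.76 against 8.08 and 7.82, a difference of 0.02 ± 0.146. BGLU28, a beta-glucosidase induced by sulfur shortage, had 4.35 and 4.56 against 4.37 and 4.04, with 1 slim1-2-S1500 array below the control bound and a difference of 0.25 ± 0.204 (adjusted p = 0.724). The signs of the ATPS4 and SDI2 differences were not stable. ATPS4 gave -0.045 without slim1-1-S1500 replicate 2 and -0.000148 without slim1-2-S1500 replicate 2, and SDI2 gave -0.19 without slim1-1-S1500 replicate 1 and -0.11 without slim1-2-S1500 replicate 2. On S15 BGLU28 had 7.63 and 7.49 in slim1-1, 7.85 and 7.99 in slim1-2 and 11.31 and 11.29 in P. MGL, methionine gamma-lyase, which breaks down methionine, gave -0.14 ± 0.136. It stood above P-S1500 in both lines, by 0.78 in slim1-1 and 0.92 in slim1-2. Between the alleles, 0 of 4 tested genes of methionine metabolism were called.

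CHIL, chalcone isomerase like, a non-catalytic protein that promotes flavonoid synthesis, had 9.46 and 9.25 in slim1-1-S1500 and 8.28 and 7.96 in slim1-2-S1500. P-S1500 had 9.67 and 9.60. The slim1-2 arrays were low, and the difference was 1.24 ± 0.151 (2.36-fold higher; adjusted p = 0.000461). The 1 tested gene of the flavonoid list gave 0.22 and was not called. AT5G26270, a locus without a role here, had 8.45 and 8.57 against 7.43 and 7.62, a difference of 0.98 ± 0.138 (adjusted p = 0.00153). AT4G07820 differed by 0.94 ± 0.141 and AT1G06000 by 0.92 ± 0.141, and in both the slim1-2 minus P difference was negative (-0.84 and -1.39). CHIL, AT5G26270, AT4G07820 and AT1G06000 kept their calls whichever array was left out.

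The named gene with the most positive difference was AT2G30540, with 6.30 and 6.26 in slim1-1-S1500 and 3.59 and 5.40 in slim1-2-S1500, a difference of 1.79 ± 0.404 (adjusted p = 0.0399). Of its slim1-2-S1500 arrays 1 (3.59) lay below the control bound, and without that array the difference was smaller than those of AT2G23910 and AT4G03100. Its call was lost without slim1-2-S1500 replicate 1 (0.88), without slim1-1-S1500 replicate 1 (1.77) or replicate 2 (1.81), and without either array of P-S1500, P-S15 or slim1-2-S15 (1.79). AT2G23910 had 7.09 and 6.60 against 5.49 and 4.91, a difference of 1.64 ± 0.279, and P-S1500 was higher than both, at 7.94 and 7.76. AT4G03100 had 7.33 and 6.91 against 6.13 and 5.27, a difference of 1.42 ± 0.237, and P-S1500 was at the slim1-1 level, 7.25 and 6.998. AT2G35750 had 8.04 and 7.96 in slim1-1, above slim1-2 (7.05 and 7.29) and also above P (7.08 and 6.97). The remaining loci of the 15 were AT3G50900 (0.97), AT1G68940 (0.85), AT1G24320 (0.82), AT1G22520 (0.81), AT2G40120 (0.81) and AT3G19430 (0.76), none with a role in the sources used here.

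The calls of these loci were also lost with 1 array left out, with the sign kept. Without slim1-1-S1500 replicate 1, AT2G23910 (1.40), AT4G03100 (1.21), AT2G35750 (0.79), AT1G68940 (0.89), AT1G24320 (0.78) and AT1G22520 (0.70) lost theirs. With slim1-1-S1500 replicate 2 left out, AT3G50900 (0.78), AT1G68940 (0.82), AT1G24320 (0.86), AT1G22520 (0.92), AT2G40120 (0.64) and AT3G19430 (0.59) did. With slim1-2-S1500 replicate 1 left out, AT3G50900 (0.77), AT2G35750 (0.71), AT1G68940 (0.67), AT1G22520 (0.53) and AT2G40120 (0.79) did, and with its replicate 2 left out, AT2G23910 (1.35), AT1G24320 (0.57) and AT2G40120 (0.82). AT1G68940 (0.85) was also not called without P-S1500 replicate 1 or without either P-S15 array.

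The counts of the other lists are to be read against the 1.69% of all tested probe sets called, at which 0 calls in a list of a few members says nothing about the list. Of 7 tested tau glutathione S-transferases, which attach glutathione to small molecules, 0 were called. Of 3 tested genes of the rapid stress response 0 were called between the alleles, and the median differences from P were -1.33 in slim1-1 and -1.39 in slim1-2. The P-S1500 arrays disagreed for this list, with summed signals of 2700 on replicate 1 and 1062 on replicate 2, against 475 to 753 on the 4 mutant arrays on S1500. EIN3, the ethylene factor related to SLIM1, gave -0.17 and did not pass. Calls were also 0 of 3 for auxin, 0 of 2 each for iron deficiency, abscisic acid and cold, and myrosinases and ER bodies, and 0 of 1 each for antioxidant enzymes, low oxygen, the circadian clock and the endodermis. Of 8 tested mitochondrion-encoded genes 0 were called, with a median of 0.33. Their list's summed signals were 1933 and 1747 in slim1-1-S1500. They were 1156 on slim1-2-S1500 replicate 1 and 2013 on its replicate 2, the same array being the lower one as for the plastid genes. The P-S1500 arrays gave 1364 and 1345, nearer to that lower array. The P-S15 arrays also lay apart, at 1193 and 2108. Families gathered by symbol stem after the values were seen had 1 of 8 tested autophagy genes lower (ATG8F, -0.32), 1 of 7 SWEET sugar transporters lower (SWEET2, a vacuolar transporter, -0.46), 1 of 2 glutaredoxins higher (GRXC2, 0.35), 1 of 4 methionine sulfoxide reductases higher (MSRB9, 0.38), 1 of 25 UDP-glycosyltransferases higher (UGT74B1) and 0 of 10 cytochrome P450 genes. Symbol stems miss members that carry only a locus identifier, so these counts do not cover whole families. The ATG8F call was lost whichever of the 12 arrays was left out, with values from -0.35 to -0.29. The calls of SWEET2 (-0.49 to -0.42) and MSRB9 (0.35 to 0.41) were lost without any 1 of the 4 arrays compared. The GRXC2 call was kept in 2 of the 12 cases, without slim1-2-S15 replicate 1 or replicate 2, and its values ran from 0.30 to 0.39.

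The same alleles on S15, measured on other arrays, gave 25 calls (0.183%), 8 higher (0.0586%) and 17 lower (0.125%). Of the 231 calls on S1500, 20 were also called on S15 in the same direction, which is 8.66% of the S1500 calls and 80% of the S15 calls. The difference had the same sign on both media for 53 of the 71 higher and 140 of the 160 lower probe sets, together 83.5%, against 55.9% of all tested probe sets. Its size was smaller on S15 for 224 of the 231, with medians moving from 0.70 to 0.23 for the higher and from -0.83 to -0.32 for the lower probe sets. Having been called on S1500 favours larger values there. Named genes called on both media were petB, AT5G26270, AT1G26250, AT4G22640, AT4G25790 and AT2G16005.

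AT4G25790 had 7.08 and 7.06 in slim1-1-S15 and 8.04 and 7.83 in slim1-2-S15, a difference of -0.87 on S15 beside -0.85 on S1500. AT1G26250 differed by 0.84 and 0.71, AT2G16005 by -0.79 and -0.87, and AT4G22640 by -0.89 and -0.72 on S15 and S1500. On S15 AT5G26270 differed by 0.88. AT4G12500 (1.15) and AT4G01390 (-1.69) were called on S15 and not on S1500, where they gave 0.48 and -0.11. The difference between media of these 2 did not pass (adjusted p = 0.321 and 0.311). The S15 calls of AT2G16005 (-0.83 to -0.76), AT4G01390 (-2.02 to -1.35), AT4G22640 (-1.03 to -0.76) and AT5G26270 (0.77 to 1.00) were lost without any 1 of the 4 S15 mutant arrays. That of AT4G25790 was lost without slim1-1-S15 replicate 1 (-0.88) or replicate 2 (-0.86) or slim1-2-S15 replicate 1 (-0.76), and that of AT1G26250 without slim1-1-S15 replicate 1 (0.81) or slim1-2-S15 replicate 2 (0.71). On S1500, AT4G22640 lost its call without slim1-1-S1500 replicate 1 (-0.69) or replicate 2 (-0.76) or slim1-2-S1500 replicate 1 (-0.70) or replicate 2 (-0.75), and AT1G26250 without slim1-1-S1500 replicate 1 (0.61). The S15 count ran from 6 to 35 with 1 array left out, and was 6 and 12 without slim1-1-S15 replicate 1 and replicate 2 and 8 without either slim1-2-S15 array.

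**Figure D4:**
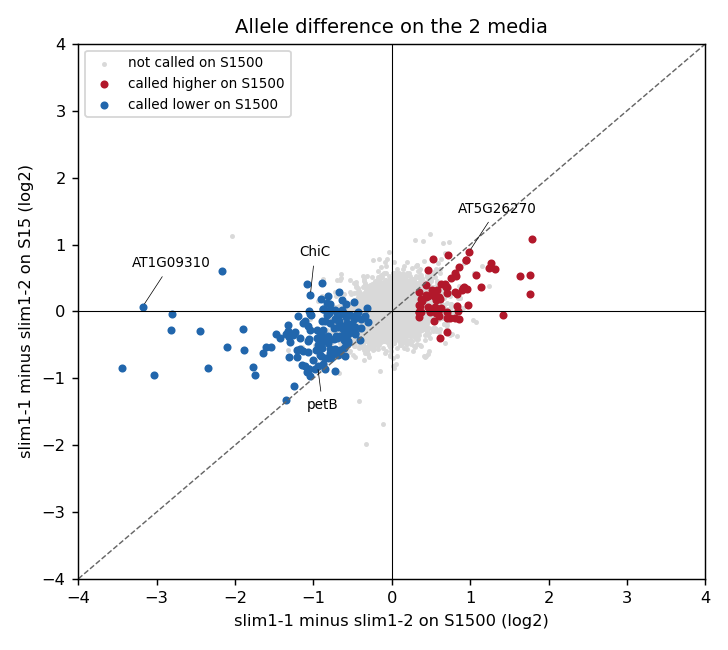
The slim1-1 minus slim1-2 difference of each tested probe set on S1500 (log2, x axis) is plotted against that on S15 (log2, y axis), with equal values on the dashed line. Most called probe sets (red and blue) lie closer to 0 on the y axis than on the x axis, and AT1G09310 lies at -3.18 on S1500 and 0.07 on S15, where both slim1-2 arrays are below the control bound.

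Whether an allele difference depended on the medium was tested directly, as the difference on S1500 minus that on S15. This gave 15 calls (0.11%), 2 higher (0.0147%) and 13 lower (0.0953%), of which 2 had a single gene. AT1G09310 gave -3.25 ± 0.341 (adjusted p = 0.000876) and ChiC gave -1.28 ± 0.186 (adjusted p = 0.0188). ChiC on S15 had 9.07 and 9.06 in slim1-1 and 8.65 and 9.002 in slim1-2, so the order of the lines seen on S1500 was not seen there. For the photosynthesis genes the difference between media was negative but did not pass, with -1.12 for PSBW (adjusted p = 0.194), -0.95 for LHCB4.2 (adjusted p = 0.194) and -0.59 for RCA (adjusted p = 0.275). Root hair markers gave values nearer 0, -0.09 for EXPA18 and -0.20 for AT3G49960, and BCAT4 gave 0.56 (adjusted p = 0.37). The count of 15 ran from 5 to 15 with 1 array left out. It was 8 when slim1-1-S1500 replicate 1 was left out or when slim1-1-S15 replicate 2 was, 7 without slim1-2-S15 replicate 2, 6 without slim1-1-S15 replicate 1, and 5 without replicate 2 of slim1-1-S1500, replicate 2 of slim1-2-S1500 or replicate 1 of slim1-2-S15. The ChiC value lost its call without either slim1-1-S1500 array (-1.22 and -1.33), either slim1-1-S15 array (-1.27 and -1.28), replicate 2 of slim1-2-S1500 (-1.16) or replicate 1 of slim1-2-S15 (-1.10), and AT1G09310 kept its call throughout, with both slim1-2-S15 arrays below the control bound.

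Called genes were found on the 5 nuclear chromosomes and the plastid chromosome, with 1.18%, 1.75%, 0.882%, 1.3% and 0.798% of tested probe sets called on nuclear chromosomes 1 to 5 and 10.9% on the plastid chromosome. Outside the plastid, pairs of neighbouring genes that were both called numbered 2 among probe sets with 1 gene. They were AT2G41800 with AT2G41810 (0.46 and 0.44, both higher) and AT3G54580 with HRGP1 (-0.79 and -0.60, both lower). Both pairs were named after their values were seen. Whether the probe sets of AT3G54580 and HRGP1 read separate transcripts was not tested. AT2G41800 lost its call without slim1-1-S1500 replicate 2 (0.41) or slim1-2-S1500 replicate 2 (0.44), and AT2G41810 kept its call in 5 of 12 cases, with values from 0.36 to 0.51. AT3G54580 lost its call without slim1-1-S1500 replicate 1 (-0.82) or replicate 2 (-0.75) or slim1-2-S1500 replicate 1 (-0.68), and HRGP1 without slim1-1-S1500 replicate 2 (-0.53) or slim1-2-S1500 replicate 1 (-0.50). Among probe sets unnamed here, the lowest pair in slim1-1 differed by -3.44 and -3.04, and the highest pair by 1.77 and 1.76.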

How the data were processed

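Root RNA of 12 plant samples was hybridised as biotin-labelled cRNA to Affymetrix arrays. The authors deposited linear intensity values, a signal for every probe set, from MAS5 according to the submitters' processing notes. Its version and scaling target: not given in the sources used here. Groups and replicate numbers came from the sample titles. Signals were raised to at least 1, log2-transformed, and quantile-normalized because array medians differed by 1.41 (above a rule of 0.5). The 64 control probe sets were dropped, and 13647 of 22746 others whose mean over 12 arrays exceeded the 40th percentile (5.767) were tested with limma 3.58.1 in R 4.3.3 (1 mean for each of 6 groups, eBayes with a trend on intensity, residual df 6, prior df 7.76, two-sided, Benjamini-Hochberg adjustment over all tested probe sets). The procedure was tested on simulated data. The control bound is the highest of 27 Bacillus control probe sets on an array.

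The probe annotation gives 1 gene for 13513 probe sets and several for 503, and 8794 are unnamed here; 13436 matched RefSeq TAIR10.1, used for symbols and gene order only. Of the tested probe sets, 7332 (53.7%) had 1 gene. Of 365 entries in 31 gene lists, 60 were named and 45 tested, and 12 lists had no tested member (sulfate transporters, phosphate starvation, nitrate uptake and reduction, jasmonate, ethylene, salicylate and pathogen defence, heat shock, aquaporins, and markers of hairless epidermis, stele, meristem and root cap). Lists are described by counts and medians, without a set test.

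Genes named are the 15 highest and 15 lowest called with 1 gene and no overlap, every called list member, a set of sulfur genes whatever their values, and up to 5 each way for the other allele comparisons. The comparison, lists and naming rule were chosen with earlier results of these data known. Alternatives were median centring, no normalization, added constants of 16 and 64, testing without the filter or above the 60th percentile, eBayes without the trend, a replicate block, only the groups compared, and each array left out. The crossed block, symbol-stem families and further names were chosen after seeing the data. Deviations of same-numbered arrays correlated at -0.118 to 0.23 over 15 pairs of groups, so the replicate numbers were not taken to pair arrays.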

Additional observations from a re-analysis of the deposited data

Results flagged for a closer look

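By the test of the difference between media (S1500 minus S15), the allele difference of 15 probe sets depended on the medium. Of these, 2 had a single gene and 13 are unnamed here. AT1G09310 gave -3.25 (adjusted p = 0.000876 from limma), with slim1-1 lower on S1500 and both slim1-2-S15 arrays below the control bound, and kept its call whichever array was left out. ChiC gave -1.28 (adjusted p = 0.0188), with slim1-1 lower on S1500 and a difference of 0.24 on S15. The ChiC call was lost when slim1-1-S1500 replicate 1 (-1.22) or 2 (-1.33), either slim1-1-S15 array (-1.27 and -1.28), replicate 2 of slim1-2-S1500 (-1.16) or replicate 1 of slim1-2-S15 (-1.10) was left out.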

How the results depend on the processing

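Between the alleles on S1500, 231 probe sets were called; median centring gave 204, pseudocounts 236 and 235, no filter 155, the stricter filter 178, no intensity trend 165, and 1 array left out 108 to 226. Counts that moved by over 1.5 times were these. Without normalization between arrays they were 13 on S1500, 1 on S15 (0 higher, 1 lower), 0 for the difference between media (197 at an unadjusted p under 0.05 in limma), 11 for slim1-1 against P (5 higher, 6 lower, against 9 and 50) and 12 for slim1-2 against P. With no filter they were 9 on S15, 5 between media and 188 for slim1-2 against P. The 60th percentile gave 8 between media. No intensity trend gave 3 on S15, 4 between media, 33 for slim1-1 and 180 for slim1-2 against P. Only the groups compared gave 145 on S1500, 13 on S15 and 128 for slim1-2 against P. With 1 array left out the ranges were 6 to 35 on S15, 5 to 15 between media, 18 to 101 for slim1-1 and 78 to 276 for slim1-2 against P; a lone array was then assumed to vary like the other groups. The causes were not tested.

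The replicate block gave 242 calls on S1500. It ended 1 of the 38 calls named by size or as list members, that of psbT. Numbers do not pair the arrays here. With the slim1-2-S1500 numbers crossed in the block, 199 were called. Of the 38, 13 held whichever array was left out. Without normalization 36 were lost (AT1G09310 and AT2G30540 were kept), and without the filter 14. With only the groups compared 12 were lost, without the trend 7, and with median centring 1 (LHCB4.1). Other named calls are not among the 38. None of the 38 changed sign in these settings. Of uncalled values, MGL turned to 0.082 without normalization, and SDI2 (-0.19 to 0.23) and ATPS4 (-0.045 to 0.16) changed sign with 1 array left out, SDI2 to -0.19 and -0.11 without slim1-1-S1500 replicate 1 and slim1-2-S1500 replicate 2, and ATPS4 to -0.045 and -0.000148 without replicate 2 of slim1-1-S1500 and of slim1-2-S1500. Signals near the control bound, as for BGLU28, limit what can be seen.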
